A study of Mus musculus with 24 samples.

Results

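The endocannabinoid system genes described here are 8 genes, taken by their symbols as listed in the feature table of the deposited matrices, which holds 54235 features. They are Cnr1, Cnrip1, Dagla, Daglb, Napepld, Mgll, Faah and Abhd6, and all 8 symbols were found. Single-cell RNA sequencing (10x Genomics, 3′ ends) was run on motor cortex and dorsal striatum of mice trained to reach with a forelimb. Motor cortex came from Fos-CreER::Ai9 mice and dorsal striatum from Arc-CreER::Ai9 mice, so region and driver line cannot be told apart. In both lines an activity-dependent gene drives a Cre recombinase that works only with 4-hydroxytamoxifen (4-OHT), and Ai9 then makes the red reporter tdTomato in cells that were active around the injection. Early mice were trained for 2 days, late mice for 8 days, and control mice received 4-OHT without training. Every mouse, controls included, therefore carried the driver and reporter alleles and received 4-OHT, and tissue was taken 3 days after labelling.

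Each library holds 1 hemisphere pooled from 2 mice, a male and a female. The labels name the hemispheres contralateral and ipsilateral in trained mice, and left and right in controls. The 24 libraries make 12 pools, 2 for each region and stage, and the pool is the replicate in every test (n = 6 pools a region unless stated). Counts of 23 libraries were used. Counts of the right striatal library of control pool 1 were not used here, so the levels of that pool are of its left hemisphere alone. The barcodes of that library were used in sorting the pools by the cell barcodes they share. Ages are not given in the sources used here.

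Endocannabinoids are lipid messengers made on demand from membrane lipids, mainly in postsynaptic neurons, that travel backwards across the synapse. The CB1 receptor, encoded by Cnr1, sits mostly on axon terminals, where it lowers transmitter release, and Cnrip1 encodes a protein that binds the tail of that receptor. Dagla and Daglb encode the diacylglycerol lipases that make 2-arachidonoylglycerol (2-AG), and Napepld encodes the enzyme NAPE-PLD, 1 route to anandamide. Mgll encodes monoacylglycerol lipase, the main enzyme that breaks down 2-AG in brain, Abhd6 encodes a second 2-AG hydrolase, and Faah encodes the hydrolase that breaks down anandamide. In striatum this system takes part in long-term depression of the cortical input to spiny projection neurons, a form of plasticity linked to motor learning.

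All 8 genes are protein coding, and their positions are given on GRCm38. Cnr1 lies at chr4:33924593-33948831 on the plus strand and Faah at chr4:115967145-116017926 on the minus strand. Cnrip1 lies at chr11:17051586-17079371 (plus strand), where Plek overlaps it on the other strand. Dagla lies at chr19:10245265-10304877 (minus strand). Daglb lies at chr5:143464584-143505942 (plus strand), with Rac1 overlapping on the other strand, and Napepld at chr5:21662901-21701396 (minus strand), with the predicted gene Gm15719 on the other strand. Mgll lies at chr6:88724412-88828360 (plus strand), where the annotation also places short predicted genes on both strands, and Abhd6 at chr14:8002902-8056763 (plus strand). The strand setting of the counting is not given in the sources used here, so reads of overlapping genes cannot be fully set apart from those of Cnrip1, Daglb, Napepld and Mgll. Only the 3′ end of a transcript is counted, so levels are compared between cells for 1 gene and never between genes.

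Library totals ran from 5260446 to 30470621 UMIs (unique molecular identifiers, 1 for each captured transcript), and 98612 cells were kept, 47985 from cortex and 50627 from striatum. Cells were clustered without the 8 genes, and clusters were named from markers that did not include them, so that a class or type below (microglia, Sst interneurons) means cells like it by its markers. In cortex, glutamatergic neurons (17633 cells), microglia (10189), oligodendrocyte precursors (5475), GABAergic interneurons (4453) and astrocytes (3019) were the most frequent. In striatum these were spiny projection neurons (21906), neuroblasts or progenitors (8510), microglia (5025), astrocytes (2955), oligodendrocyte precursors (2740) and GABAergic interneurons (1878). Pools also fell into 2 sets by the cell barcodes they share. Pairs of pools within a set shared 1.28 to 1.48 (first set) or 0.154 to 0.400 (second set) barcodes per 1000000 possible pairs, and pairs across sets at most 0.0511. The first barcode list holds late pool 1 and control pool 1 of each region and no early pool, and the second holds the other 8 pools. The labels name version 2 or 3 of the library kit without saying which library had which. The 4 pools of the first list are also the only ones in 2 of the 6 batches that the labels name. Tests of stage and region carry the barcode list as a covariate, and pool values are given for the members the results turn on, so that both lists can be read. Levels are UMIs of a gene per 1000000 UMIs of the class (CPM), summed over the cells of a class in a pool.

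In motor cortex the receptor gene Cnr1 was highest in GABAergic interneurons, at 1443 ± 258 CPM (SD, n = 6 pools). Pool by pool, Cnr1 in these interneurons was 1260 and 1504 CPM in control pools 1 and 2, 1556 and 1732 in early pools 1 and 2, and 1020 and 1588 in late pools 1 and 2. The lowest pools were control pool 1 and late pool 1, the pair on the first barcode list. Both early pools lay above both control pools, and the late pools spanned the range of the controls. Glutamatergic neurons had 56.5 ± 6.6 CPM of Cnr1, astrocytes 42.2 ± 11.1 and oligodendrocyte precursors 20.5 ± 5.79. No interneuron pool overlapped any pool of another class, while glutamatergic neurons and astrocytes overlapped. Interneurons were 9.28% of the cortical cells and held 84.3% of the Cnr1 UMIs, against 14.5% in glutamatergic neurons. In 4 cortical pools with enough cells, neuroblasts had 61.7 ± 34.8 CPM.

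In striatum 2 classes carried most Cnr1. GABAergic interneurons had 466 ± 104 CPM of Cnr1 and spiny projection neurons, the output neurons of the striatum, 364 ± 81.4. Their pool ranges overlapped, from 317 to 558 CPM and from 255 to 434 CPM, and both lay above every other class. Cnr1 in spiny projection neurons was 255 and 413 CPM in control pools 1 and 2, 422 and 434 in early pools, and 265 and 394 in late pools. Again control pool 1 and late pool 1 were lowest. Spiny projection neurons were 43.3% of striatal cells and held 82.7% of the Cnr1 UMIs. Cholinergic interneurons, the large tonically active cells of the striatum, had 20.1 ± 11.6 CPM of Cnr1, below all pools of the GABAergic interneurons. Striatal astrocytes had 55.6 ± 18.3 CPM.

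Counted by cells, 81.8% of cortical GABAergic interneurons had a Cnr1 UMI (exact 95% binomial interval 80.6 to 82.9%, counting error only), against 28.1% of glutamatergic neurons and 6.92% of astrocytes. Microglia, taken as the class that shows the level of free RNA, had one in 0.687% of cells at a median of 1821 UMIs a cell, close to the 1695 of astrocytes. When each cell was thinned to 2000 UMIs and shallower cells were left out, the shares were 64.2% in interneurons, 9.91% in glutamatergic neurons, 6.98% in astrocytes and 0.530% in microglia. In striatum 48.1% of spiny projection neurons and 77.5% of GABAergic interneurons had a Cnr1 UMI (35.9% and 49.8% after thinning), and 1.21% of microglia did (1.29%). The astrocyte share stood above the microglial share at like depth in both regions, with 11.0% in striatum (12.1% after thinning).

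**Figure D1:**
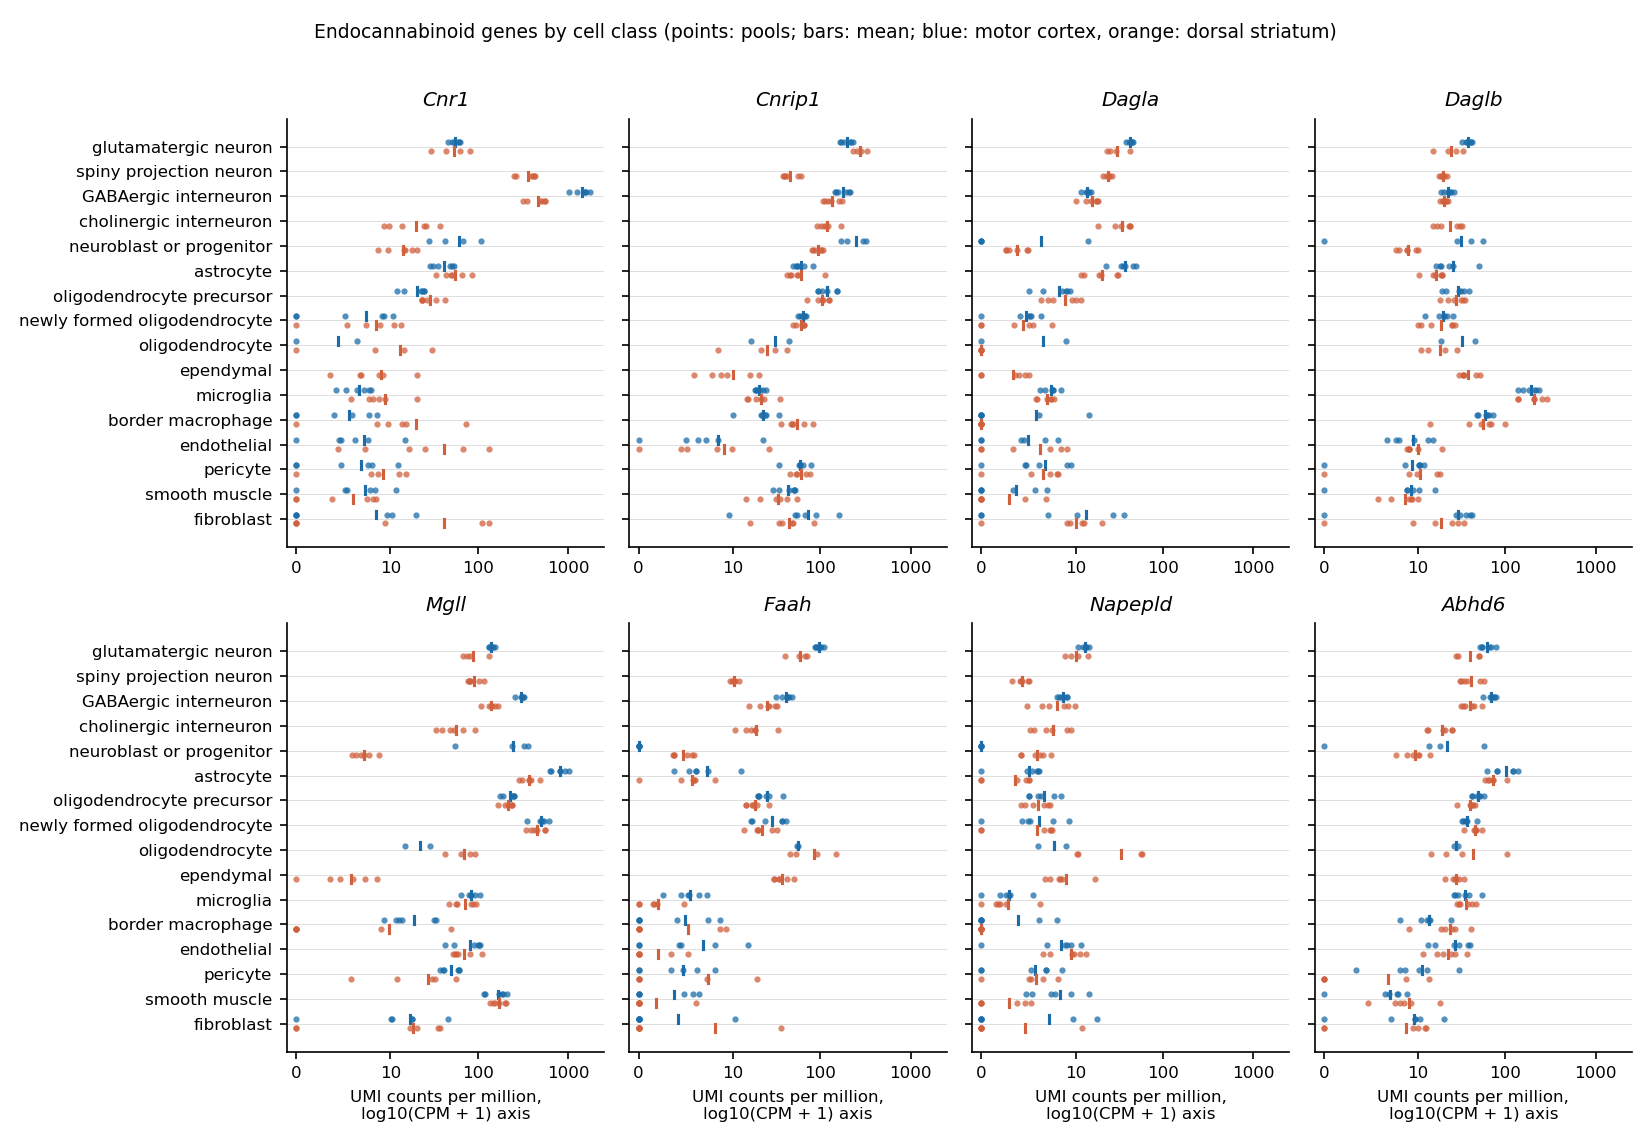
Level of each of the 8 genes by cell class, as CPM on a log10(CPM + 1) axis. Points are pools, blue for motor cortex and orange for dorsal striatum, and the bar is the mean over pools. Cnr1 stands highest in cortical GABAergic interneurons (mean 1443 CPM), Mgll in cortical astrocytes (813) and Daglb in microglia (190 and 205).

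Among the named kinds of cortical interneuron, Cnr1 was highest in the Sncg type, whose markers include Cck. Cholecystokinin-expressing basket cells are known for CB1 on their terminals. Cnr1 in Sncg interneurons was 6722 and 6059 CPM in control pools 1 and 2, 5395 and 5980 in early pools, and 5463 and 6081 in late pools (5950 ± 484). All these values lay above those of every other type, and control pool 1 on the first barcode list was the highest of them. Vip interneurons had 1039 ± 246 CPM, Lamp5 interneurons 482 ± 69.8, Sst interneurons 159 ± 42.7 and Pvalb interneurons 91.8 ± 18.6 (4 pools). The ranges of the Sncg, Vip, Lamp5 and Sst types did not overlap, and Sst overlapped layer 5 extratelencephalic neurons (137 ± 20.3 CPM). Sncg cells were 5.35% of cortical interneurons and held 27.3% of their Cnr1 UMIs.

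A further 42.5% of the interneuron Cnr1 UMIs lay in subclusters that the markers left unnamed, which hold 19.7% of these cells. One of them, with 254 cells led by Vip, Cxcl14, Tac2 and Htr3a and with Cck and Sncg among its 10 leading genes, had 5740 CPM of Cnr1 over all its cells and 29.7% of the UMIs. Another, also of 254 cells and led by Cxcl14, Adarb2, Reln and Ndnf, had 2733 CPM and 11.2% of the UMIs. The levels of the Vip and Lamp5 types therefore describe the named cells only.

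Among the named glutamatergic types, layer 2/3 intratelencephalic neurons had 73.4 ± 12.6 CPM of Cnr1 and layer 5 extratelencephalic neurons 137 ± 20.3. The layer 5 name is weak: it rests on 1 cluster of 297 cells with a median of 1648 UMIs, and Fam19a1, Lamp5, C1ql3 and Calb1, which also lead the layer 2/3 clusters, are among its 10 leading genes. Layer 6 corticothalamic neurons had 20.4 ± 4.54 CPM, near-projecting neurons 9.29 ± 8.8 and layer 6b neurons 3.76 ± 1.49, the last at the level of cortical microglia (3.96 ± 1.58). Unnamed glutamatergic subclusters, 41.8% of these cells, held 61.9% of the class's Cnr1 UMIs.

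In striatum the Pthlh interneurons, whose markers include Pvalb, had the highest Cnr1 of the named neuron types. Their values were 707 and 933 CPM in control pools 1 and 2, 933 and 994 in early pools, and 690 and 948 in late pools (868 ± 133). No other named striatal type reached this range. D2-like spiny projection neurons had 386 ± 90.6 CPM, D1-like 370 ± 87.7, the eccentric type 249 ± 64.7 and Sst interneurons 222 ± 52.8, and these neighbours overlapped.

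**Figure D2:**
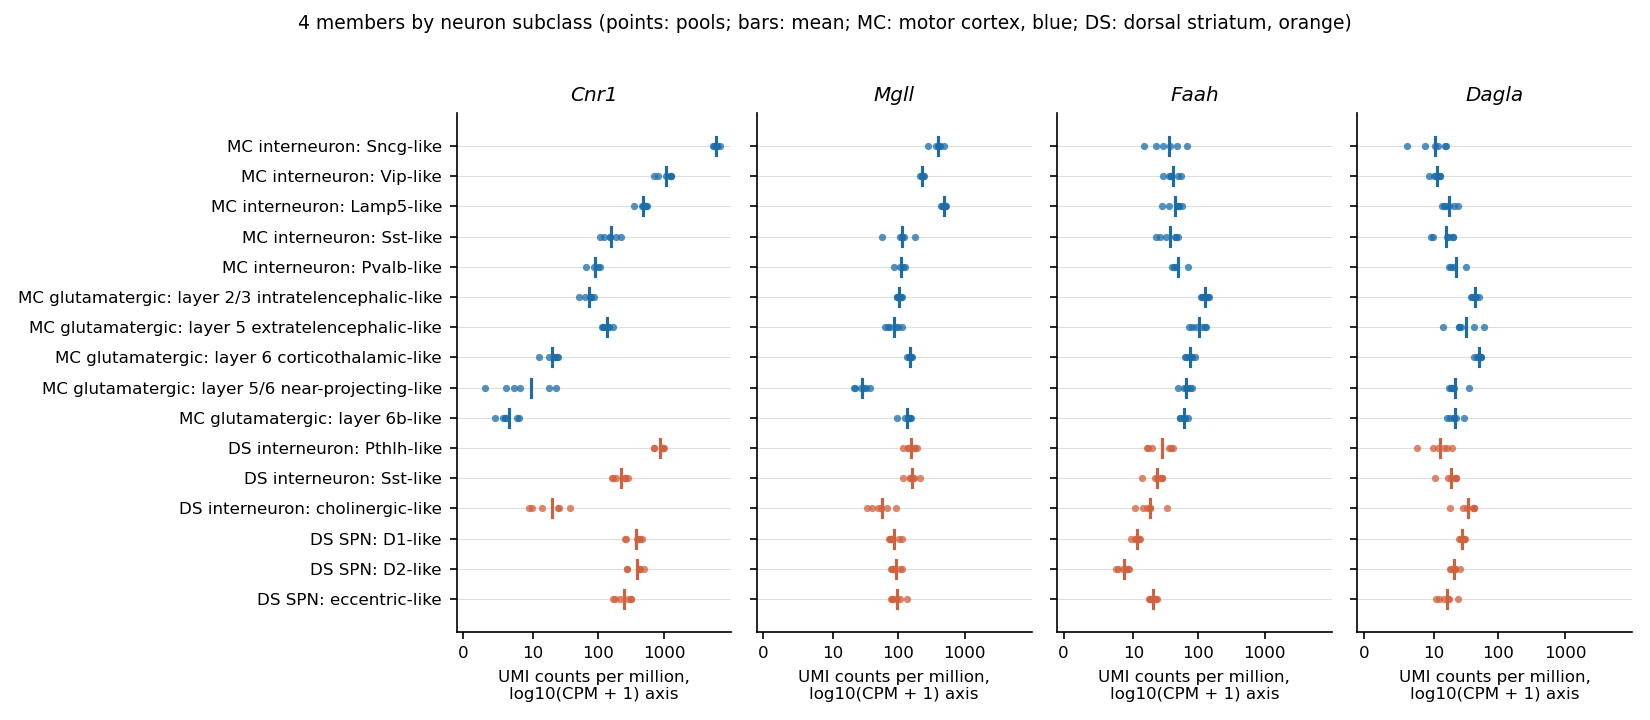
Levels of Cnr1, Mgll, Faah and Dagla by named neuron type, as CPM on a log10(CPM + 1) axis. Points are pools, blue for motor cortex and orange for dorsal striatum (spiny projection neurons are written SPN), and the bar is the mean over pools. Mean Cnr1 runs from 3.76 CPM in layer 6b neurons to 5950 CPM in Sncg interneurons, while mean Faah stays between 6.86 and 129 CPM.

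Cnrip1, the CB1-binding protein, followed another order. It was 198 ± 26.9 CPM in cortical glutamatergic neurons and 178 ± 31.3 in cortical GABAergic interneurons, with overlapping ranges. Striatal GABAergic interneurons had 135 ± 27 CPM and the few striatal glutamatergic cells 275 ± 43.4 (4 pools). Spiny projection neurons had only 46.2 ± 9.81 CPM of Cnrip1, below all pools of the striatal GABAergic interneurons and in the range of astrocytes (60.3 ± 26.8). Oligodendrocyte precursors had 120 ± 27.3 CPM in cortex and 104 ± 20.3 in striatum, while microglia had 20.6 ± 2.51 and 21.4 ± 7.49. In spiny projection neurons control pool 1 and late pool 1 were highest for Cnrip1, at 57.0 and 60.5 CPM, and the other 4 pools lay between 38.4 and 41.9.

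Of the genes of 2-AG synthesis, Dagla was led by cortical glutamatergic neurons and astrocytes. Glutamatergic neurons had 46.2 and 44.7 CPM of Dagla in control pools 1 and 2, 44.5 and 44.4 in early pools, and 41.9 and 38.6 in late pools (43.4 ± 2.72). Late pool 2 was the lowest, and both late pools lay below the other 4. Cortical astrocytes had 38.0 ± 9.65 CPM and cortical GABAergic interneurons 13.8 ± 1.24. In striatum cholinergic interneurons had 34.6 ± 9.68 CPM, spiny projection neurons 24.1 ± 1.95, astrocytes 20.8 ± 8.42 and GABAergic interneurons 15.5 ± 3.33. By layer, Dagla was 50.7 ± 4.66 CPM in layer 6 corticothalamic neurons, 43.8 ± 4.45 in layer 2/3 neurons and 22.2 ± 7.13 in near-projecting neurons. Sncg interneurons, highest for the receptor gene, had 10.7 ± 4.79 CPM of Dagla, the lowest mean of the named cortical types.

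Daglb, the second diacylglycerol lipase gene, was highest in microglia. Cortical microglia had 136 and 237 CPM of Daglb in control pools 1 and 2, 218 and 182 in early pools, and 158 and 207 in late pools (190 ± 38). Striatal microglia had 139 and 209, 252 and 207, and 137 and 286 CPM in the same order (205 ± 59.8). In both regions the pools of the first barcode list were the lowest. Border macrophages came next, with 59.5 ± 9.5 and 56.8 ± 29.1 CPM. Neurons were lower, at 37.9 ± 3.55 CPM in cortical glutamatergic cells and 19.6 ± 1.43 in spiny projection neurons. Neurons were deeper in UMIs than microglia, and glutamatergic cells held 51.9% of the cortical Daglb UMIs and microglia 33.9%, and in striatum the shares were 38.1% for spiny projection neurons and 38.8% for microglia.

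Napepld was sparse everywhere. Cortical glutamatergic neurons had 12.9 ± 1.24 CPM, above all pools of cortical GABAergic interneurons (6.95 ± 0.817), and spiny projection neurons had 1.86 ± 0.452. Striatal oligodendrocytes had 34.3 ± 27.5 CPM over 4 pools, with a range of 10.3 to 58.7. Layer 2/3 neurons had the highest mean of the named neuron types, 17.3 ± 2.41 CPM.

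Mgll, the main 2-AG hydrolase gene, was highest in cortical astrocytes. Its values there were 636 and 934 CPM in control pools 1 and 2, 1016 and 822 in early pools, and 646 and 823 in late pools (813 ± 152). The 2 pools of the first barcode list were again lowest, and each stage overlapped the others. Newly formed oligodendrocytes followed in cortex with 502 ± 85.1 CPM and led in striatum with 457.1 ± 89.8, where astrocytes had 372 ± 73. Mature oligodendrocytes had 22.1 ± 9.97 CPM in cortex (2 pools) and 71.0 ± 22.1 in striatum (4 pools). Cortical GABAergic interneurons had 305 ± 24.8 CPM, cortical glutamatergic neurons 143 ± 8.71, striatal GABAergic interneurons 142 ± 20.6 and spiny projection neurons 90.7 ± 16.3. Ependymal cells and striatal neuroblasts were lowest, at 3.05 ± 2.47 and 4.71 ± 1.49 CPM. Of cortical astrocytes 69.3% had an Mgll UMI and of cortical microglia 14.1%.

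Among cortical neuron types Mgll was 491 ± 34 CPM in Lamp5 and 404 ± 69.1 in Sncg interneurons, whose ranges overlapped. Both lay above Vip interneurons (233 ± 11.2), which lay above all other named types. Near-projecting neurons had 29.0 ± 6.42 CPM, below every other type. Sst interneurons had 117 ± 39.3 CPM in cortex and 164 ± 32.1 in striatum.

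Faah, the anandamide hydrolase gene, was a gene of projection neurons in cortex. Glutamatergic neurons had 88.8 and 111 CPM in control pools 1 and 2, 99.3 and 102 in early pools, and 87.1 and 89.7 in late pools (96.4 ± 9.58), above every pool of every other cortical class. They held 88.1% of the cortical Faah UMIs. Cortical GABAergic interneurons had 41.3 ± 5.81 CPM and astrocytes 4.68 ± 4.01. Spiny projection neurons had 10.4 ± 0.865 CPM of Faah, with all pools between 9.33 and 11.8. Outside neurons, oligodendrocytes had 55.9 ± 1.03 CPM in cortex (2 pools) and 85.7 ± 48.2 in striatum (4 pools), and ependymal cells 37.2 ± 8.22. By layer, layer 2/3 neurons had 129 ± 15.7 CPM and layer 6b neurons 60.9 ± 7.04.

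Abhd6, the second 2-AG hydrolase gene, was spread more evenly. Astrocytes had the highest means, 100 ± 29.9 CPM in cortex and 72.9 ± 16.1 in striatum. Cortical GABAergic interneurons had 69.7 ± 7.58 CPM, glutamatergic neurons 62.2 ± 10.2 and spiny projection neurons 40.6 ± 11.4. Microglia had 35.1 ± 10.5 and 36.3 ± 7.72. Abhd6 in spiny projection neurons was 57.9 and 30.8 CPM in control pools 1 and 2, 31.5 and 36.9 in early pools, and 51.8 and 34.6 in late pools. Control pool 1 and late pool 1, on the first barcode list, were the highest, with a mean of 54.8 CPM against 33.5 on the second list. In cortical glutamatergic neurons the 2 cortical pools of the first barcode list, control pool 1 and late pool 1, were highest, at 77.9 and 69.4 CPM. The other 4 lay between 52.3 and 64.7. Within neurons Lamp5 interneurons (115 ± 9.8 CPM) and layer 2/3 neurons (108 ± 11.7) were higher than layer 6 corticothalamic neurons (32.8 ± 4.52).

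Differences between classes were tested with edgeR's quasi-likelihood test on counts summed per pool and class, with the pool as a block and Benjamini-Hochberg adjustment over all genes. All classes of a region were in a joint fit. The standard errors and p-values therefore draw on the spread in every class, not only in the pair compared. Genes with an adjusted p below 0.05 were called. Napepld did not pass the filter on low counts here, so 7 members were tested. Log2 fold changes are given with their standard error (SE). In cortex, GABAergic interneurons against glutamatergic neurons gave 5 of 7 members called, beside 56.4% of all genes. Cnr1 was higher by 4.60 (SE 0.14, edgeR adjusted p = 2.11e-46) and Mgll by 1.03 (SE 0.118, adjusted p = 2.32e-12). Dagla was lower, at -1.72 (SE 0.122, adjusted p = 2.43e-22), as were Faah at -1.28 (SE 0.117, adjusted p = 1.82e-16) and Daglb at -0.82 (SE 0.11, adjusted p = 6.14e-10). Cnrip1 at -0.22 (edgeR adjusted p = 0.0537) and Abhd6 at 0.11 (adjusted p = 0.399) were not called. So the receptor gene and the main 2-AG hydrolase gene were the 2 members higher in cortical interneurons, and both synthesis genes tested were lower there.

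Cortical astrocytes against glutamatergic neurons gave 6 of 7 members called, beside 75.9% of all genes. Mgll was higher in astrocytes by 2.48 (SE 0.125, edgeR adjusted p = 8.03e-32) and Abhd6 by 0.77 (SE 0.123). Faah was -4.53 (SE 0.247, adjusted p = 4.07e-29) and Cnrip1 -1.77 (SE 0.132). Daglb, at -0.74 (SE 0.162), was not called with RLE size factors (-0.30, adjusted p = 0.0867), with DESeq2 (-0.30, adjusted p = 0.113) or without early pool 1 (-0.31, adjusted p = 0.124). Cnr1, at -0.39 (SE 0.171, adjusted p = 0.0352), turned to 0.05 with RLE size factors and 0.03 with DESeq2, and was -0.06 without early pool 1. It also missed the threshold with doublets kept (-0.38, adjusted p = 0.325) and without control pool 1, early pool 2 or late pool 1 (-0.36 to -0.31, adjusted p between 0.0672 and 0.120). Dagla did not pass the test, at -0.22 (95% interval -0.52 to 0.09). RLE size factors moved the median of all genes by 0.43 in this comparison and by 0.18 to 0.48 in 4 others of astrocytes or striatal interneurons.

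Against microglia, cortical astrocytes had 6 of 7 members called, beside 71.4% of all genes, and striatal astrocytes 6 of 7, beside 69.1%. Daglb was lower in astrocytes by 3.70 on the log2 scale in cortex and by 4.47 in striatum, as coded -3.70 (SE 0.152, edgeR adjusted p = 1.56e-37) and -4.47 (SE 0.156, adjusted p = 8.37e-47). Cnr1, Mgll, Dagla and Cnrip1 were higher in astrocytes in both regions, with Mgll at 2.60 (SE 0.131) and 1.53 (SE 0.139). Dagla was 2.33 (SE 0.21) and 1.47 (SE 0.266), and Cnr1 was 2.82 (SE 0.243) and 2.16 (SE 0.34). With doublets kept the striatal Cnr1 difference was 0.27 (adjusted p = 0.376). By edgeR Abhd6 was called in cortex alone (0.96, SE 0.135) and Faah in striatum alone (1.86, SE 0.625), and Faah was lost under a stricter cell filter (1.60, adjusted p = 0.104). Faah was nearly absent from both striatal classes, with means of 2.85 CPM in astrocytes and 0.62 in microglia. In striatum Abhd6 was 0.18 by edgeR (adjusted p = 0.290), but DESeq2 called all 7 members there, Abhd6 included. The share of all genes called by DESeq2 was not counted, so that count of members has no share to be set beside. RLE size factors moved the median of all genes by 0.48 in that comparison. Whether the differences of Abhd6 and Faah are unlike between regions was not tested.

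In striatum, GABAergic interneurons against spiny projection neurons gave 4 of 7 members called, beside 64.4% of all genes. Cnrip1 was higher by 1.41 (SE 0.112, edgeR adjusted p = 8.54e-21), Faah by 1.12 (SE 0.141) and Mgll by 0.50 (SE 0.124), and Dagla was -0.78 (SE 0.143). Cnr1 differed by 0.21 (95% interval -0.15 to 0.57, adjusted p = 0.305), an interval far below the difference between cortical interneurons and glutamatergic neurons. Abhd6 (-0.13, adjusted p = 0.365) and Daglb (-0.10, adjusted p = 0.530) were not called either. Striatal astrocytes against spiny projection neurons gave 5 of 7 called, beside 73.8% of all genes. Mgll was higher in astrocytes by 1.90 (SE 0.128) and Abhd6 by 0.76 (SE 0.129), while Cnr1 was -2.75 (SE 0.224) and Faah -1.71 (SE 0.286). Dagla (-0.36, adjusted p = 0.0526) and Cnrip1 (0.18, adjusted p = 0.219) were not called. The call of Daglb, -0.41 with adjusted p = 0.0284, rested on the settings: it was 0.000419 with RLE size factors, -0.001 with DESeq2, -0.23 without the filter on low counts (adjusted p = 0.475), -0.50 with stricter cells (adjusted p = 0.0988), and past the threshold in no fit that left out a pool (adjusted p between 0.0680 and 0.281).

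Mature oligodendrocytes had more Faah and less Mgll than their precursors. Oligodendrocytes against their precursors gave 4 of 7 members called in cortex, beside 34.6% of all genes, and 3 of 7 in striatum, beside 32.4%. Faah was higher in oligodendrocytes by 1.86 (SE 0.373, edgeR adjusted p = 2.89e-05) in cortex and 2.48 (SE 0.324, adjusted p = 3.02e-10) in striatum. Mgll was -2.84 (SE 0.371, adjusted p = 5.97e-10) and -1.27 (SE 0.281, adjusted p = 0.000125), and Cnrip1 -1.58 (SE 0.327) and -1.93 (SE 0.377). The newly formed stage between them was not tested. By level, Mgll was 228 ± 33.8 CPM in cortical and 217 ± 29.2 in striatal precursors, below the newly formed cells, and Faah was 24.8 ± 7.12 and 18.1 ± 4.57 CPM in precursors and 28.9 ± 11.3 and 22.3 ± 7.03 in newly formed cells. Cnr1 was -2.98 in cortex (SE 1.11, adjusted p = 0.0292), and missed the threshold with DESeq2 (-3.00, adjusted p = 0.099), with doublets kept (-1.91, adjusted p = 0.387) and without early pool 2 (-2.82, adjusted p = 0.0533). The cortical oligodendrocytes had a mean of only 1.89 CPM of Cnr1 (2 pools), against 20.5 in precursors. That is below the 3.96 CPM of cortical microglia, so the size of this fold is uncertain. In striatum Cnr1 was not called (-0.81, 95% interval -2.71 to 1.08), and the difference between the regions was not tested. Abhd6, the third hydrolase gene, was not called in cortex (-0.49, adjusted p = 0.347) or striatum (0.18, adjusted p = 0.823), nor was Daglb (0.64, adjusted p = 0.184, and -0.31, adjusted p = 0.680). Dagla was not called in cortex (-0.57, adjusted p = 0.719), and it had no UMI in striatal oligodendrocytes, so no fold is given there. Few oligodendrocytes were caught, with 168 cells in cortex (2 pools used) and 184 in striatum (4 pools used).

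**Figure D3:**
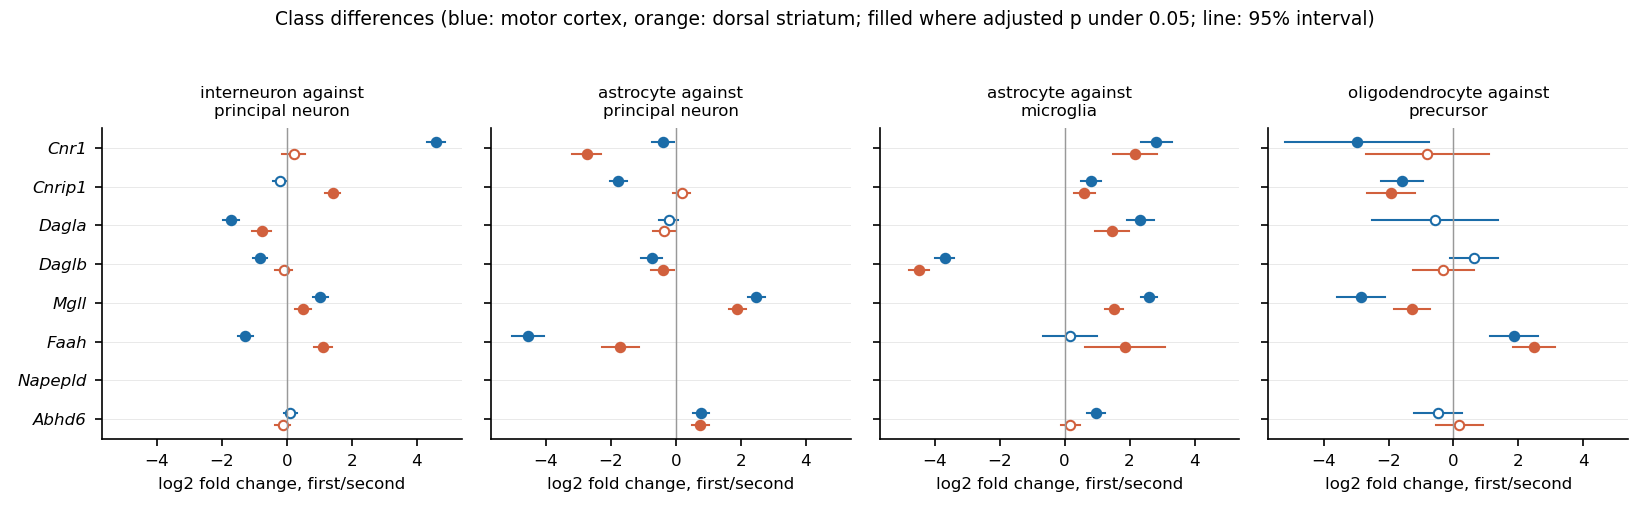
Log2 fold changes of 7 members between fixed pairs of cell classes, blue for motor cortex and orange for dorsal striatum, with 95% intervals derived from edgeR's F statistic. Filled points had an adjusted p under 0.05, and Dagla in striatal oligodendrocytes is left out because it has no UMI there. Cnr1 is 4.60 higher in cortical GABAergic interneurons than in glutamatergic neurons, while the striatal pair differs by 0.21.

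Direct-pathway (D1-like) and indirect-pathway (D2-like) spiny projection neurons were compared within pools. Faah in D1-like neurons was 9.05 and 10.5 CPM in control pools 1 and 2, 12.5 and 11.3 in early pools, and 11.1 and 12.9 in late pools. In D2-like neurons it was 8.09 and 5.54, 5.08 and 7.42, and 6.57 and 8.44 CPM. Every D1-like value lay above every D2-like value. The difference was -0.75 (SE 0.108, edgeR adjusted p = 6.6e-08). In all 6 of 8 members were called, beside 30.0% of all genes. Dagla was also lower in D2-like neurons (-0.35, SE 0.0627, adjusted p = 5.84e-06), with 28.5 ± 2.48 CPM in D1-like and 21.3 ± 2.64 in D2-like cells, as was Abhd6 (-0.21, SE 0.0511).

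The other 3 called differences were small. Cnrip1 was -0.17 (SE 0.0495), Mgll 0.12 (SE 0.0341) and Cnr1 0.10 (SE 0.0294) in D2-like against D1-like neurons. DESeq2 called none of these 3, at -0.16, 0.13 and 0.10 with adjusted p of 0.0999, 0.0586 and 0.0844, and 3 of 8 members in all. The share of all genes that DESeq2 called was not counted, so its count of members cannot be set beside one. Without early pool 2 the Cnr1 difference was 0.04 (adjusted p = 0.311). Daglb (-0.14, adjusted p = 0.121) and Napepld (-0.20, adjusted p = 0.617) were not called.

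Between regions, 5 of 8 members were called in GABAergic interneurons, all lower in striatum, beside 33.7% of all genes. Cnr1 was -1.52 (SE 0.0881, edgeR adjusted p = 1.86e-10), Mgll -0.98 (SE 0.087, adjusted p = 5.46e-08), Abhd6 -0.68 (SE 0.111) and Faah -0.59 (SE 0.13). Cnrip1 was -0.28 (adjusted p = 0.0223), which missed the threshold without the barcode covariate (-0.27, adjusted p = 0.286) and without striatal control pool 1, striatal late pool 2 or cortical control pool 2 (-0.26 to -0.23, adjusted p between 0.0614 and 0.075). In the batch shared by early pool 2 of both regions Cnr1 was 554 CPM in striatum and 1732 in cortex, and in the batch shared by late pool 2 it was 493 and 1588. Dagla (0.30, adjusted p = 0.134), Daglb (-0.03, adjusted p = 0.890) and Napepld (-0.07, adjusted p = 0.851) were not called. A fit over the 12 pools with batch, stage and region as terms was added after the data were seen, and left 3 residual degrees of freedom. Early pool 2 and late pool 2 are the only pools whose batches hold both regions. The region term of this and the other batch fits therefore rests on them. With batch as a term 3 members were called in GABAergic interneurons, beside 16.1% of all genes. They were Cnr1 (-1.56, SE 0.162, edgeR adjusted p = 2.38e-07), Mgll (-0.86, SE 0.148, adjusted p = 0.000175) and Abhd6 (-0.58, adjusted p = 0.0318), while Faah (-0.32, adjusted p = 0.313) and Cnrip1 (-0.20, adjusted p = 0.438) were not called. The named interneuron types are not the same in the regions, and the part of this mix in the differences was not tested.

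Sst interneurons are a type named in both regions, and a comparison within them was added after the types were seen to differ. The cells that carry the name were not alike in the 2 regions. All 3 striatal Sst clusters had Npy, Nos1, Hhip and Chodl among their 10 leading genes. Of the 3 cortical ones, Nos1 and Chodl were among them in 1 (138 cells), and Calb1 and Pdyn in the other two (168 and 93 cells). A further cortical cluster of 202 cells led by Sst was left unnamed and is not in the comparison. The part of the kinds of Sst cell in the differences was not tested. The comparison within Sst interneurons gave 4 of 7 members called, beside 24.9% of all genes, and 3 members (Cnr1, Mgll and Cnrip1) had the opposite sign to the whole class. Cnr1 in Sst interneurons was 107 and 226 CPM in cortical control pools 1 and 2, 187 and 155 in early pools, and 125 and 155 in late pools. In striatal Sst interneurons it was 165 and 260, 260 and 286, and 171 and 188 CPM. The ranges overlapped, but on each barcode list the striatal values were the higher ones, except that cortical control pool 2 lay above striatal late pool 2. Cnr1 was higher in striatum by 0.57 (SE 0.121, edgeR adjusted p = 0.000547) and Mgll by 0.57 (SE 0.145, adjusted p = 0.00364). Both were called under each of the 6 other settings first run, in which no pool was left out. Abhd6 was lower, at -0.57 (SE 0.19, adjusted p = 0.0266), and so was Faah, at -0.54 (SE 0.18, adjusted p = 0.0277), as in the whole class. These 2 calls were lost, with differences of like size, with DESeq2 (-0.57 and -0.52, adjusted p = 0.101 and 0.115), without the filter on low counts (-0.53 and -0.51, adjusted p = 0.0826 and 0.0813) and without the barcode covariate (-0.55 and -0.53, adjusted p = 0.123 and 0.0865). Napepld was not tested there, and without the filter on low counts it was called lower in striatum (-1.37, SE 0.409, adjusted p = 0.00877). With batch as a term, beside 10.2% of all genes, Cnr1 (0.71, edgeR adjusted p = 0.0159) and Mgll (0.85, adjusted p = 0.00788) were called and Abhd6 (-0.51, adjusted p = 0.498) and Faah (-0.48, adjusted p = 0.437) were not. Cnrip1 differed by 0.01 (adjusted p = 0.954), Dagla by 0.38 (adjusted p = 0.305) and Daglb by -0.22 (adjusted p = 0.517), and none of these was called.

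Astrocytes of the 2 regions differed in 3 of 6 members tested, beside 23.5% of all genes. Mgll was lower in striatal astrocytes at -1.09 (SE 0.159, edgeR adjusted p = 1.34e-05). Its striatal values were 394 and 312 CPM in control pools 1 and 2, 374 and 370 in early pools, and 287 and 496 in late pools. All of them lay below the lowest cortical pool, 636 CPM. Dagla was -0.80 (SE 0.229, adjusted p = 0.0118), and missed the threshold without striatal control pool 1 (-0.65, adjusted p = 0.0517) or striatal late pool 2 (-0.63, adjusted p = 0.0929). Abhd6 was -0.54 (SE 0.175, adjusted p = 0.0278), and missed it with DESeq2 (-0.50, adjusted p = 0.0838), without the barcode covariate (-0.50, adjusted p = 0.167) and in 7 of the 12 fits that left out a pool (-0.52 to -0.37, adjusted p between 0.0554 and 0.175). Striatal astrocytes form 2 clusters, of 2094 and 861 cells, the smaller led by Gja1, Gfap, Mlc1 and Igfbp5, while cortical astrocytes form 1. The levels in the larger and the smaller cluster were 406 ± 69.8 and 325 ± 90 CPM for Mgll, 28.2 ± 14.8 and 8.31 ± 2.58 for Dagla, and 89.1 ± 22 and 44.6 ± 10.7 for Abhd6. With the larger cluster alone, an alternative added after the data were seen, Mgll was -0.97 (SE 0.161, edgeR adjusted p = 0.000124), beside 9.57% of all genes called, and Dagla (-0.43, adjusted p = 0.307) and Abhd6 (-0.27, adjusted p = 0.421) were not called. With batch as a term and both clusters edgeR called 0 of 6 members, beside 3.59% of all genes. An unadjusted p under 0.05 was found for 2 (Mgll and Dagla), beside 14.7% of all genes. Mgll was -0.97 (edgeR adjusted p = 0.0528), Dagla -1.20 (adjusted p = 0.164) and Abhd6 -0.09 (adjusted p = 0.938). Cnr1 was not called in astrocytes (0.40, 95% interval 0.02 to 0.77, adjusted p = 0.12), nor were Daglb (-0.38, adjusted p = 0.270) and Cnrip1 (-0.03, adjusted p = 0.931).

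Spiny projection neurons against cortical glutamatergic neurons, the main projection neurons of each region, gave 8 of 8 members called, beside 66.1% of all genes. Cnr1 alone was higher in spiny projection neurons, by 2.65 (SE 0.0814, edgeR adjusted p = 3.16e-12). Faah was -3.23 (SE 0.0891), Napepld -2.81 (SE 0.126), Cnrip1 -2.12 (SE 0.0882), Daglb -0.96 (SE 0.0829), Dagla -0.86 (SE 0.0693), Mgll -0.67 (SE 0.0907) and Abhd6 -0.66 (SE 0.0916). With batch as a term all 8 were again called in the same direction, beside 54.9% of all genes. For Cnr1 the lowest striatal pool, 255 CPM, lay above the highest cortical pool, 63.6 CPM.

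In the other classes found in both regions edgeR called 0 of 19 member tests, in microglia, oligodendrocyte precursors, newly formed oligodendrocytes, endothelial and smooth muscle cells. Beside this, 1.15% of all gene tests were called over 7 classes, which also hold border macrophages and fibroblasts, where no member was tested. DESeq2 called 0, and the unadjusted edgeR p was under 0.05 in 3 (15.8% of the member tests, beside 9.35% of all gene tests). These 3 were Cnr1 in microglia (1.12, edgeR adjusted p = 0.318), and Cnr1 (0.40, adjusted p = 0.472) and Abhd6 (-0.28, adjusted p = 0.476) in oligodendrocyte precursors. Daglb in microglia differed by 0.12 (95% interval -0.14 to 0.38).

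**Figure D4:**
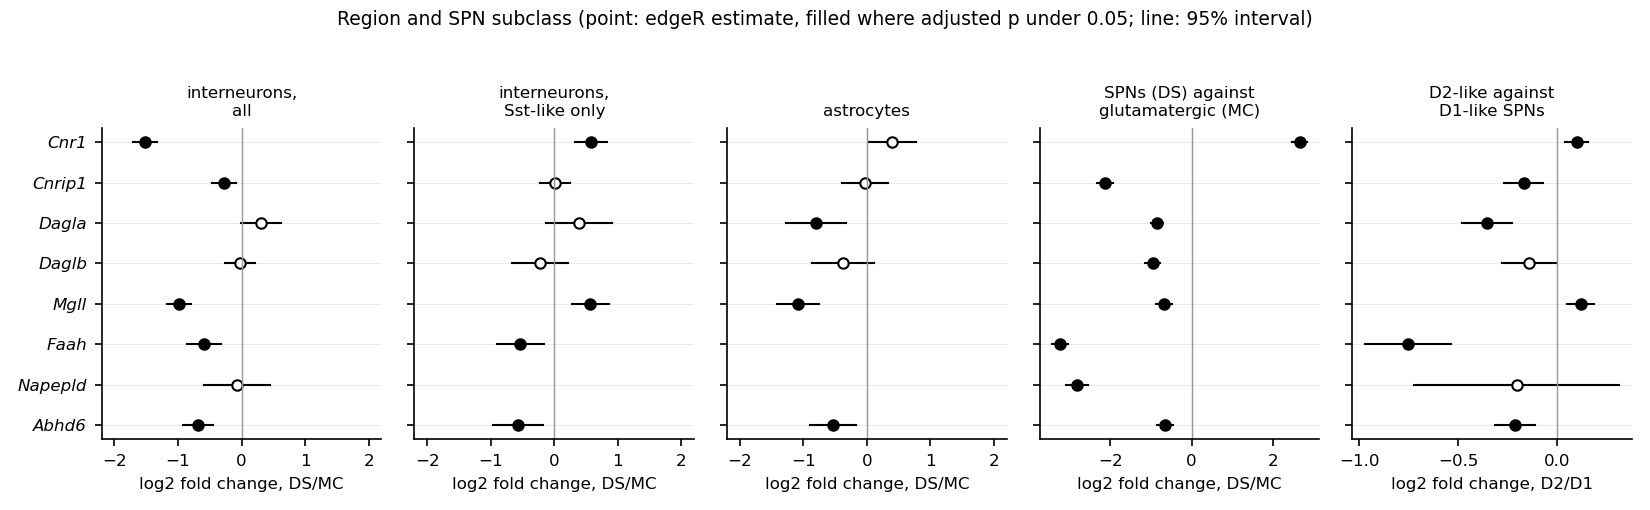
Log2 fold changes of the members, striatum (DS) minus motor cortex (MC), in all GABAergic interneurons, Sst interneurons, astrocytes, and spiny projection (SPN) against glutamatergic neurons, and D2-like minus D1-like neurons in the last panel. Points are edgeR estimates, filled where the adjusted p is under 0.05, lines are 95% intervals, and the last 2 panels have their own horizontal range. Cnr1 is at -1.52 in all GABAergic interneurons and at 0.57 in Sst interneurons.

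Stage of training was the study's main question, and none of the 8 genes was called for it in any class. In motor cortex, 48 member tests over 10 classes were made for each of the 3 contrasts, which share pools. EdgeR called 0 of the 144, none had an unadjusted p under 0.05 (3.23% of all gene tests did), and DESeq2 called 0 and had none under 0.05. The smallest adjusted p was 0.857. Beside this, 0.0249% of all gene tests were called for early against control, 0.0487% for late against control and 0.0124% for late against early. In striatum, 61 member tests over 12 classes were made for each contrast. EdgeR called 0 of the 183, 3 had an unadjusted p under 0.05 (5.89% of all gene tests did), DESeq2 called 0, and the smallest adjusted p was 0.676. All gene tests gave 0.0283%, 0.0317% and 0.0206% called in the same order. These shares of all gene tests are over 11 classes in cortex and 13 in striatum, 1 more in each than had a member tested.

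The intervals say how large a change these 2 pools a stage could have hidden. For late against control, Cnr1 changed by -0.04 in cortical glutamatergic neurons (95% interval -0.33 to 0.24), by -0.06 in cortical GABAergic interneurons (-0.39 to 0.26) and by 0.02 in spiny projection neurons (-0.21 to 0.26). Mgll in spiny projection neurons was 0.26 (-0.10 to 0.63), with 82.2 and 81.9 CPM in controls, 79.8 and 105 in early pools, and 78.2 and 117 in late pools. Early pool 2 and late pool 2 were the high ones, and early pool 1 and late pool 1 lay just below the controls. Dagla in cortical glutamatergic neurons was -0.15 (-0.42 to 0.12) and Faah -0.14 (-0.44 to 0.15). On simulated counts for late against control, the fit recovered 71.7% of genes changed 2-fold in cortical glutamatergic neurons (17778 genes) and 62.7% in spiny projection neurons (17330 genes), and 13% and 36.4% of those changed 1.5-fold. The simulated pools had no difference between barcode lists, and each gene had the spread typical of its level. Recovery in the real counts may therefore be lower. The changed genes were drawn at random from all genes tested. The shares are thus averages over genes of every level and not those of the members at their own levels.

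The pools that share a batch give the same comparison with no covariate. Late pool 1 and control pool 1 of each region share one, and early pool 1 and control pool 2 another. Within these pairs Cnr1 in cortical GABAergic interneurons was 1020 against 1260 CPM for late against control and 1556 against 1504 for early against control. In spiny projection neurons it was 265 against 255 and 422 against 413. Early pool 2 and late pool 2 sit in batches without a control. A fit over both regions with batch as a term, added after the data were seen, assumes the same stage change in both regions. Its contrast of late with control rests on late pool 1 and control pool 1. The contrast of early with control rests on early pool 1 and control pool 2. Over 8 classes (spiny projection and glutamatergic neurons taken as 1) edgeR called 0 of 41 member tests for early against control and 0 of 41 for late against control, beside 0.0311% and 0.0361% of all gene tests (border macrophages and fibroblasts included, where no member was tested). The unadjusted p was under 0.05 in 2 tests of each contrast. Over classes, 1.87 to 7.28% of all genes had such a p for early against control, and 4.17 to 11.0% for late against control.

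The 3 striatal tests with an unadjusted p under 0.05 were Cnr1 in cholinergic interneurons and Cnrip1 in astrocytes. Cnr1 in cholinergic interneurons was -1.51 for late against control (SE 0.471, edgeR adjusted p = 0.978). Its values were 38.2 and 24.9 CPM in controls, 25.9 and 9.69 in early pools, and 13.8 and 8.45 in late pools, from 6 to 18 UMIs a pool. Both late pools lay below both controls. Cnrip1 in astrocytes was 46.1 and 42.8 CPM in controls, 56.0 and 55.6 in early pools, and 114 and 47.1 in late pools, where late pool 1 stands apart. The Cnr1 level of striatal endothelial cells varied widely between pools, at 4.82 and 69.4 CPM in controls, 25.4 and 1.91 in early pools, and 133 and 16.9 in late pools, from 1 to 40 UMIs. No stage difference was called there (late against control 0.19, 95% interval -2.33 to 2.70). Fits that left out control pool 1, control pool 2, late pool 1 or late pool 2, with 1 residual degree of freedom, called 2 to 3 contrasts of this gene in this class, with values from -2.27 to 6.84.

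**Figure D5:**
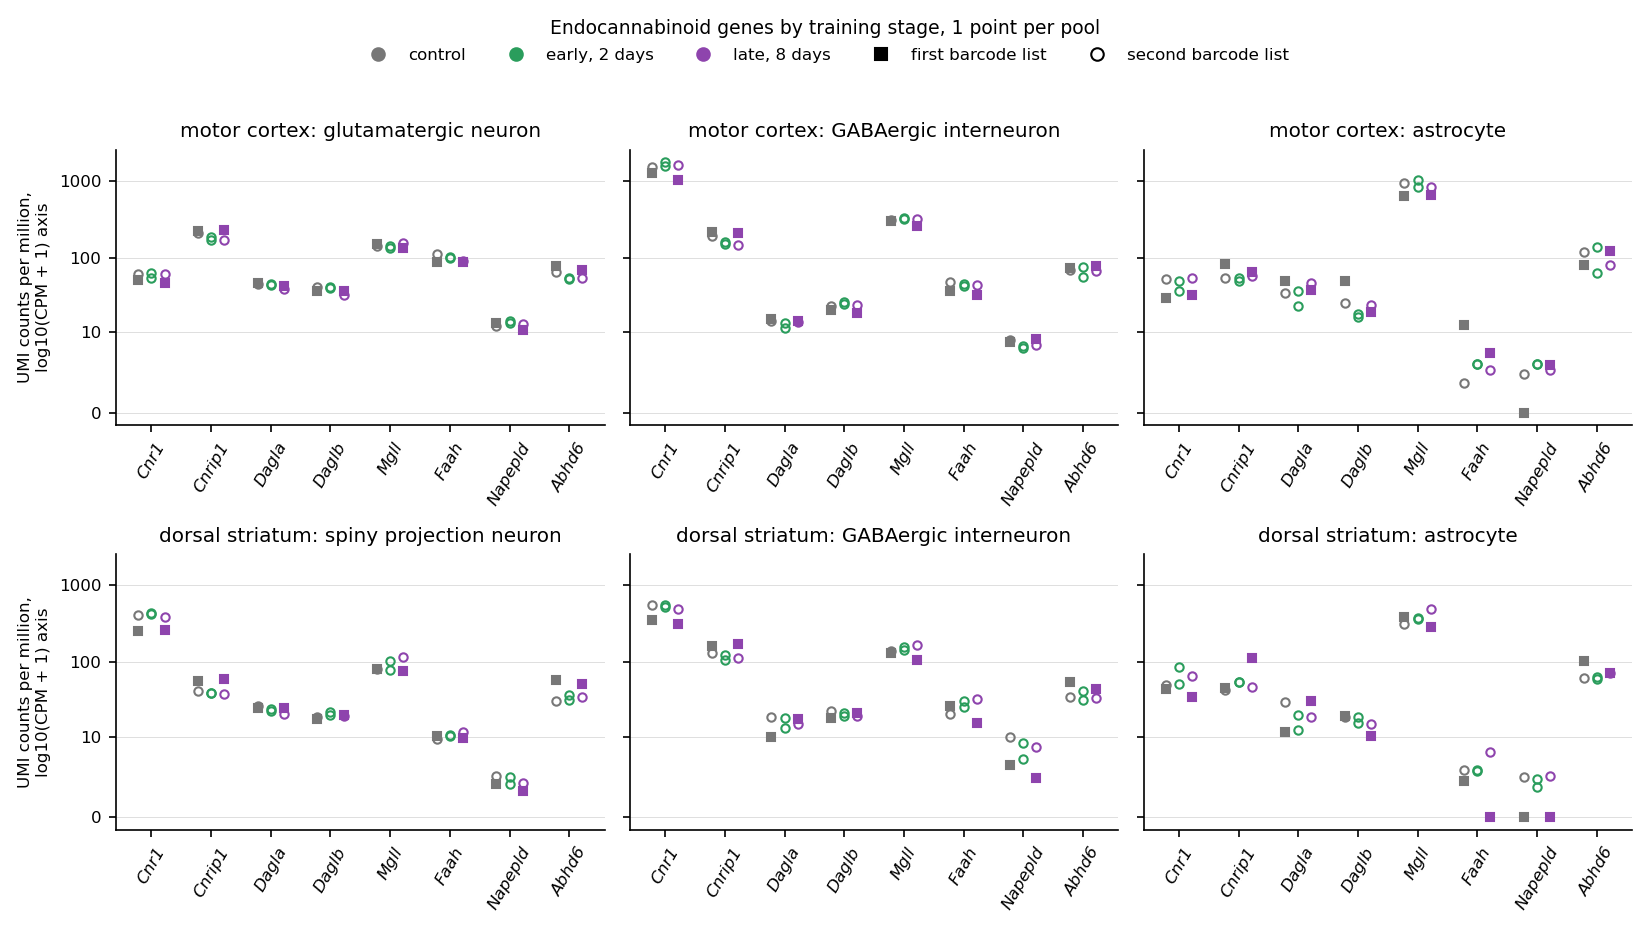
Level of the 8 genes by stage in 3 classes of each region, as CPM on a log10(CPM + 1) axis, with 1 point a pool. Colour gives the stage, and filled squares and open circles give the first and second barcode list. The first list, which holds no early pool, gives the lower Cnr1 values (1020 and 1260 CPM in cortical interneurons against 1504 to 1732 on the second list).

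A difference between regions in the response to stage was tested with an interaction term over all 12 pools. For early against control edgeR called 0 of 40 member tests, beside 0.0% of all gene tests, and for late against control 0 of 40, beside 0.00655%. None had an unadjusted p under 0.05 (5.07% of all gene tests did), the smallest adjusted p was 0.727, and DESeq2 called 0. Between hemispheres of trained mice edgeR called 0 of 78 member tests, 42 in striatum (beside 0.0155% of all gene tests) and 36 in cortex (beside 0.0669%). DESeq2 called 0, and 0 had an unadjusted edgeR p under 0.05 (4.42% of all gene tests did). For Cnr1 the contralateral minus ipsilateral difference was 0.00 (95% interval -0.09 to 0.10) in cortical glutamatergic neurons and -0.11 (-0.24 to 0.03) in spiny projection neurons.

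The label of activity was read from tdTomato alone and from no other reporter sequence, so labelled cells can be among the negative ones. A cell was positive with at least 1 tdTomato UMI, which free RNA can also give and which can miss a labelled cell of low depth. Among spiny projection neurons the 4 pools of the second barcode list had 64 to 118 such cells, 1.83 to 3.03% of the class, beside 0 to 0.129% of the microglia of these pools, and they were compared with negative cells of the same pools. EdgeR called 0 of 8 members, beside 0.251% of all genes, and DESeq2 called 0. Cnr1, higher in positive cells by 0.16, had the only unadjusted p under 0.05 (0.00366, edgeR adjusted p = 0.354), also the only one by DESeq2. By edgeR 6.38% of all genes had such a p. Positive cells were deeper, with medians of 5962 to 6772 UMIs against 5252.5 to 5720.0, and the part of this depth in the result was not tested. In cortex only control pool 2, with 21 positive cells, reached the minimum of 20, so no test was made. Over the cortical pools 0.123 to 0.785% of glutamatergic neurons and 0 to 0.245% of microglia had a tdTomato UMI.

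A list of 32 other genes of the pathway (further receptors, lipases and phospholipases, the receptors that drive endocannabinoid synthesis, and carriers) was read in the same fits. In cortical GABAergic interneurons against glutamatergic neurons 6 of 21 tested were higher and 10 lower, beside 56.4% of all genes called. Chrm1, a Gq-coupled muscarinic receptor gene, was lower at -1.61 (SE 0.127). Ptgs2, which oxidises 2-AG, was -5.01 (SE 0.302). In striatal GABAergic interneurons against spiny projection neurons 4 of 21 were higher and 11 lower (beside 64.4%), with Plcb4 at 4.81 (SE 0.152) and Chrm1 at -4.20 (SE 0.181). The median of the list was -0.35 and -0.29 in these 2 comparisons, beside -0.01 and -0.16 over all genes, and RLE size factors moved the latter median by 0.18.

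Astrocytes against cortical glutamatergic neurons had 8 of 21 higher and 11 lower (beside 75.9% of all genes called), and against spiny projection neurons 9 and 12 (beside 73.8%). The anandamide-related genes Abhd4, a lipase of N-acylethanolamine synthesis, and Naaa, an acid amidase, were higher in astrocytes, by 4.42 (SE 0.154) and 4.37 (SE 0.157) in cortex, and by 4.66 (SE 0.149) and 3.63 (SE 0.141) in striatum. Fabp7, a fatty acid carrier of glia, was higher by 5.29 (SE 0.191) and 4.74 (SE 0.162). Against microglia, 11 were higher and 6 lower in cortex (beside 71.4%), and 10 and 5 in striatum (beside 69.1%). In oligodendrocytes against precursors 4 were higher and 7 lower in cortex (beside 34.6%), and 5 and 7 in striatum (beside 32.4%), with Gde1 at 1.61 (SE 0.189) and 1.67 (SE 0.157).

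D2-like against D1-like neurons had 3 of 18 pathway genes higher and 6 lower (beside 30.0% of all genes called), with small differences such as Naaa at -0.51 (SE 0.0853) and Sgip1, which encodes a protein that binds CB1, at 0.17 (SE 0.0275). Spiny projection against glutamatergic neurons had 7 of 20 higher and 7 lower (beside 66.1%). Grm5, which encodes a Gq-coupled glutamate receptor, was higher by 1.60 (SE 0.0938), and Plcb4 was -3.71 (SE 0.105). Between regions 5 of 13 were higher in striatal GABAergic interneurons and 2 lower (beside 33.7%), 1 and 4 of 12 in Sst interneurons (beside 24.9%), and 3 and 4 of 14 in astrocytes (beside 23.5%).

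For stage, 1 pathway gene was called in 1 class, Fabp7 in cortical astrocytes for early against control (2.46, SE 0.458, edgeR adjusted p = 0.00604), of 124 pathway tests (beside 0.0249% of all gene tests). Its values were 125 and 95.1 CPM in controls, 170 and 905 in early pools, and 166 and 153 in late pools. Early pool 2 alone stood apart, with 160 astrocytes, and without it the difference was 0.83 (adjusted p = 1). The call was also lost, with a difference of like size, without control pool 2 (2.22, adjusted p = 0.220), without the barcode covariate (2.33, adjusted p = 1.00) and with DESeq2 (2.51, adjusted p = 1). No other pathway gene was called by edgeR for stage, for the interaction, between hemispheres, by reporter or between regions in the other classes.

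Genes with the most similar pattern were found by Pearson's r of mean log2(CPM + 1) over 29 pairs of class and region, among 9615 protein-coding genes that reach 50 CPM. The pairs share pools and depth, so r is a description. The closest to Cnr1 were Scg2 (r = 0.90), Rpp25 (0.89) and Mgat4c (0.88), and to Cnrip1 Klhdc2 (0.83), Ube2e1 (0.81) and Ube3a (0.81). Dagla was closest to Cacnb1 (0.88), Pi4ka (0.87) and Mras (0.86), and Daglb to Slc11a2 (0.90), Snx5 (0.85) and Hpgds (0.83). Faah was closest to Kndc1 (0.91), Kcna6 (0.90) and Tppp (0.89), Napepld to Rexo2 (0.78), Usp31 (0.78) and Ccp110 (0.75), and Abhd6 to Atp8a1 (0.83), Spire1 (0.79) and Cebpzos (0.78). Mgll had the weakest likeness, with Mfap3l (0.73), Eno1 (0.72) and Tmem63b (0.70).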

How the data were processed

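Single-cell 3′ libraries of motor cortex and dorsal striatum were deposited as matrices of UMI counts per gene and cell barcode. The authors aligned and counted reads with Cell Ranger 3.1.0 on GRCm38/mm10, per the submitters' processing notes, and no normalization was applied to these deposited counts. The 8 members and the pathway list were chosen with earlier results of these data known.

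Cells with at least 500 genes, at least 1000 UMIs and at most 20% mitochondrial UMIs were kept (103715 of 127901 barcodes), and 5103 called doublets (4.92%) were removed. Median UMIs per kept cell ran from 2048 to 5725 over libraries. Cells of each region were clustered with scanpy 1.11.5 and leidenalg 0.10.2, leaving out the members, the pathway list, sex-linked and mitochondrial genes and the reporter, and without integrating the barcode lists, so some subclusters hold mostly 1 list. Clusters were named by at least 3 fixed markers. Details of the naming rule, and cholinergic interneurons as a class of their own, were settled after the clusters were seen.

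Counts were summed per pool and class, with at least 20 cells a sum, and tested with edgeR 4.0.16 in R 4.3.3 (TMM, filterByExpr, glmQLFit, glmQLFTest). P-values were adjusted over all genes within a class and contrast, and a call is an adjusted p under 0.05. Stage fits had stage and barcode list as terms and 2 residual degrees of freedom. Class, D2-like against D1-like, hemisphere and reporter fits had the pool as a block, and the class fit was a joint fit over all classes of a region. Pools come from different mice. All members tested are named in the class, D2-like against D1-like and region comparisons that gave calls, and counted in the others; of the pathway list the called genes, at most 5 a comparison by adjusted p, and for each member the 3 most similar genes, except for results that are not reported here. Alternatives were RLE size factors, DESeq2 1.42.0, no filter on low counts, stricter cells (1000 genes, 2000 UMIs, 10% mitochondrial), doublets kept, no barcode covariate and each pool left out. Batch as a term over the 12 pools, the largest striatal astrocyte cluster alone and Sst interneurons alone were added after the data were seen. The stage, region, D2-like against D1-like, hemisphere and reporter fits were tested on simulated data. Binomial intervals cover counting error only.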

Additional observations from a re-analysis of the deposited data

Results flagged for a closer look

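One value stood apart from the others of its group by Dixon's criterion. Daglb in spiny projection neurons of the 4 late striatal libraries was 18.42 CPM in the ipsilateral library of late pool 2 and between 20.12 and 20.43 CPM in the other 3, and the gap was 0.848 of the range, above the criterion's 95% critical value for 4 samples. In all, 40 groups of 4 libraries were tested, and chance flags about 1 in 20 groups.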

How the results depend on the processing

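Of 61 called values, 45 kept their direction and their call under every alternative run and 16 lost the call or turned under at least 1, as given beside each of them. By setting, DESeq2 lost 7 and turned 1, RLE size factors lost 1 and turned 2, doublets kept lost 3, stricter cells lost 2, no filter on low counts lost 1, no barcode covariate lost 2, batch as a term lost 5 of 16 and the largest striatal astrocyte cluster alone lost 2 of 3, the last 2 added after the data were seen. Leaving out 1 pool kept 429 values and lost 25. The turned values were Daglb in striatal astrocytes against spiny projection neurons with RLE size factors (0.000419), Cnr1 in cortical astrocytes against glutamatergic neurons with RLE size factors (0.054) and DESeq2 (0.032), and Cnr1 (0.57), Mgll (0.57) and Cnrip1 (0.014) between regions in Sst interneurons alone, an alternative added after the data were seen. The causes were not tested. Members called in D2-like against D1-like neurons fell from 6 to 3 with DESeq2. Members called for stage in striatum, 0 with all pools, ranged from 0 to 3 with 1 pool left out, all of them Cnr1 in endothelial cells at 1 residual degree of freedom. Members called between regions in Sst interneurons fell from 4 to 2 with DESeq2 and to 2 without the barcode covariate. For DESeq2, and for fits without the barcode covariate, the share of all genes called was not counted. By class, members called between regions fell with batch as a term from 5 to 3 in GABAergic interneurons, from 4 to 2 in Sst interneurons and from 3 to 0 in astrocytes, and from 3 to 1 in astrocytes with the largest striatal cluster alone. The share of all genes called fell as well. With batch as a term it went from 33.7% to 16.1%, from 24.9% to 10.2% and from 23.5% to 3.59% in the same order. With the largest striatal astrocyte cluster alone it was 9.57%. The total over classes of each of the other comparisons stayed within 1.5 times under each alternative run for it. Thinning to 2000 UMIs moved the share of cells with a Cnr1 UMI from 81.8% to 64.2% in cortical interneurons, from 28.1% to 9.91% in glutamatergic neurons and from 48.1% to 35.9% in spiny projection neurons, and the share with an Mgll UMI from 69.3% to 78.2% in cortical astrocytes. Reporter-positive cells at 2 UMIs could not be fitted, since no 2 pools held 20 such cells. No paired analysis was possible because the replicate numbers only follow the order of the records and do not pair pools over all stages. That limit is for pairing by number. By batch, late pool 1 goes with control pool 1 in each region, but early pool 1 goes with control pool 2. Those batch pairs were read as levels and entered the fit with batch as a term. A stage fit within 1 region with batch as a term leaves no residual degrees of freedom. Over both regions it leaves 3, and members called between regions went from 16 to 11. The shares of all genes called also fell in the classes with these calls, as given above. In spiny projection against glutamatergic neurons the share went from 66.1% to 54.9%. The region term of that fit rests on early pool 2 and late pool 2 of each region alone. Comparisons within pools have the pool as a block.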
